A study of Mus musculus with 24 samples.

Results

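Smooth muscle and myofibroblast contractile genes were described in cultured mouse embryonic fibroblasts (MEFs). The 10 genes, chosen by symbol with earlier results of these data known, were Acta2, Tagln, Cnn1, Myh11, Lmod1, Smtn, Myl9, Actg2, Cald1 and Myocd. All 10 were found among the 45706 genes of the deposited table. The cells were primary MEFs of strain C57B1/6, either wild type (WT) or knocked out for cGAS (cGAS KO), a sensor of cytosolic DNA that is encoded by Mb21d1. Both genotypes were kept at 20% oxygen and sampled on day 33 at passage 11, on day 36 at passage 12 and on day 42 at passage 14. MEFs are a bulk population taken from whole embryos, and how many embryos stood behind each genotype is not given in the sources used here.

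Each genotype and day had 4 columns of counts. Within a genotype and day these 4 columns differed by less than the sampling noise (mean chi-square per degree of freedom 0.832 to 0.843), whereas columns of different groups gave 9.36 to 73.5. They were therefore summed and counted as 1 sample, which left 6 libraries, 3 per genotype, with 25651250 to 48717439 counts each. The 3 days stood in as replicates of a genotype, so a p-value here speaks only of how these libraries scatter, and that scatter may be technical. The targeted gene Mb21d1 was at 4.08 to 4.81 CPM (counts relative to the library total, scaled by the trimmed mean of M values, TMM) in WT, against 0 to 0.239 CPM in KO. Transcripts linked to sex separated the genotypes: Xist was at 0.0573 to 0.363 CPM in WT and 465 to 640 CPM in KO, and the Y-linked Uty at 29.9 to 32.0 CPM in WT and 2.69 to 2.91 CPM in KO. Sex-linked differences and the knockout cannot be told apart in these libraries.

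Smooth muscle cells and myofibroblasts shorten by sliding actin filaments past myosin. The smooth muscle actins Acta2 and Actg2 form the thin filament, the heavy chain Myh11 and the regulatory light chain Myl9 belong to the myosin motor, and Cald1 and Cnn1 bind actin and restrain the motor. Fibroblasts that turn into myofibroblasts switch on Acta2 and Tagln. Many of these genes are driven by serum response factor (SRF), which binds a DNA element called the CArG box together with the coactivator myocardin (Myocd) or the myocardin-related factors Mkl1 and Mkl2. In bulk RNA, fewer cells of a contractile type and less RNA per cell cannot be told apart.

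The start regions of 4 of the genes are shown because they carry, or lack, that element and because the genes differ in direction. The KO libraries of Acta2, Myl9 and Cnn1 all lay below those of WT, and those of Smtn above. Of these 4, the test below called Cnn1 and Smtn but not Acta2 and Myl9. Each line gives the 250 bases before the RefSeq transcription start, read 5′ to 3′ on the strand of the gene, in build GRCm38.p6, and capitals mark CArG-type matches.
Acta2, chr19:34255374-34255623, minus strand: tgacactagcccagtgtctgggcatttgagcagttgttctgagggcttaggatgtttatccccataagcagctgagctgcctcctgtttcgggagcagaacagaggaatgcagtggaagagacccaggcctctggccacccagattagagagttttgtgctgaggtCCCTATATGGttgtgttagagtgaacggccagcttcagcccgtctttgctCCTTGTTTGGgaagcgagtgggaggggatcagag
Myl9, chr2:156775214-156775463, plus strand: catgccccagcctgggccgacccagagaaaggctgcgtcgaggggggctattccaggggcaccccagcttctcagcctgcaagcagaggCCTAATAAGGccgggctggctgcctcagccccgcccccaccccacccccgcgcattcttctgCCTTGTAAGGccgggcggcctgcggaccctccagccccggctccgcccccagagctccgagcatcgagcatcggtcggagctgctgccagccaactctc
Cnn1, chr9:22099003-22099252, plus strand: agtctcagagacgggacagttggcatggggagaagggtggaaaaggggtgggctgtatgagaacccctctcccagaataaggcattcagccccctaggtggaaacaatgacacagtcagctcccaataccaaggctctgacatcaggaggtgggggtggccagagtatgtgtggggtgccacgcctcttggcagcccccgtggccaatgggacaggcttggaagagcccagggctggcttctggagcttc
Smtn, chr11:3539293-3539542, minus strand: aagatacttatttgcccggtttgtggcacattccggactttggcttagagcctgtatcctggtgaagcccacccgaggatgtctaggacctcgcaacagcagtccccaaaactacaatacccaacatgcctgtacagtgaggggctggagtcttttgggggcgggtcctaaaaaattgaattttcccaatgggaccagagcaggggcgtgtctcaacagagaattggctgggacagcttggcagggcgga
RefSeq start regions were found for 6 of the 10 genes, as 7 windows since Cald1 had 2 starts. Windows of 300 bases, 250 before and 50 after the start, were searched on both strands for the CArG box (CC, a run of A or T, GG), for the same element with 1 inner base changed to C or G, and for the M-CAT element CATTCC, bound by TEAD factors. The unaltered CArG box was found in 1.63% of all 32851 windows in the table and, among the members, in Myl9, 161 bases before the start. The altered element was found in 8.50% of all windows, and among the members in Acta2, 84 and 34 bases before the start, and in Myl9, 99 bases before it. M-CAT was found in 14.7% of all windows and in those of Acta2, Lmod1, Smtn and the first start of Cald1, where it lay 146, 130, 222 and 153 bases before the start. No CArG match overlapped an M-CAT match. The windows of Cnn1, Smtn, Lmod1 and Cald1 held neither CArG form.

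Per length, Acta2 and Tagln were the most abundant of the 10 genes. The deposited RPKM values are reads per kilobase of gene, scaled to a total that the sources used here do not give. By these values Acta2 averaged 1281 ± 182 RPKM in WT (SD, n = 3) and Tagln, an actin-bundling protein, 1219 ± 127 RPKM. These 2 levels overlapped. Myl9 followed at 259 ± 32.7 RPKM, Cald1 at 168 ± 13.3 RPKM, Actg2 at 123 ± 33.1 RPKM and Cnn1 at 86.1 ± 17.6 RPKM. Each of these means was below the one before it, but Actg2 overlapped with Cald1 and with Cnn1 across the WT libraries. Lmod1 was at 26.4 ± 1.04 RPKM, Smtn at 12.3 ± 0.735 RPKM, Myh11 at 9.79 ± 0.895 RPKM and Myocd at 0.0917 ± 0.0213 RPKM. In KO, Acta2 (858 ± 188 RPKM) and Tagln (883 ± 130 RPKM) again overlapped, and Smtn, at 19.7 ± 3.11 RPKM, stood above Lmod1, at 13.4 ± 1.52 RPKM, on each day. The Cald1 level is understated, since its deposited gene length of 12057 bases joins exons of several transcripts.

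Across the 3 days, 3 contractile genes were lower in KO and 1 was higher, and 6 did not pass the test. Cnn1, Lmod1 and Myh11 fell in KO and Smtn rose. The test was edgeR's quasi-likelihood test of genotype with Benjamini-Hochberg adjustment over 17233 genes and a threshold of 0.05. It called 8.72% of all genes tested, 4.65% lower and 4.07% higher in KO. The 3 KO values of 7 members lay below all 3 WT values, against 17.1% of all genes, and those of 1 member lay above, against 17.3%. At an unadjusted p under 0.05, edgeR's test counted 8 members and 27.3% of all genes. The median log2 fold change, KO over WT, was -0.65 for the 10 members and -0.01 for all genes tested. Because the members were chosen with earlier results of these data known, these comparisons with all genes are descriptions and do not test the set. All values of a fold change below are on the log2 scale, KO over WT, with the standard error (SE) of the fit.

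**Figure D1:**
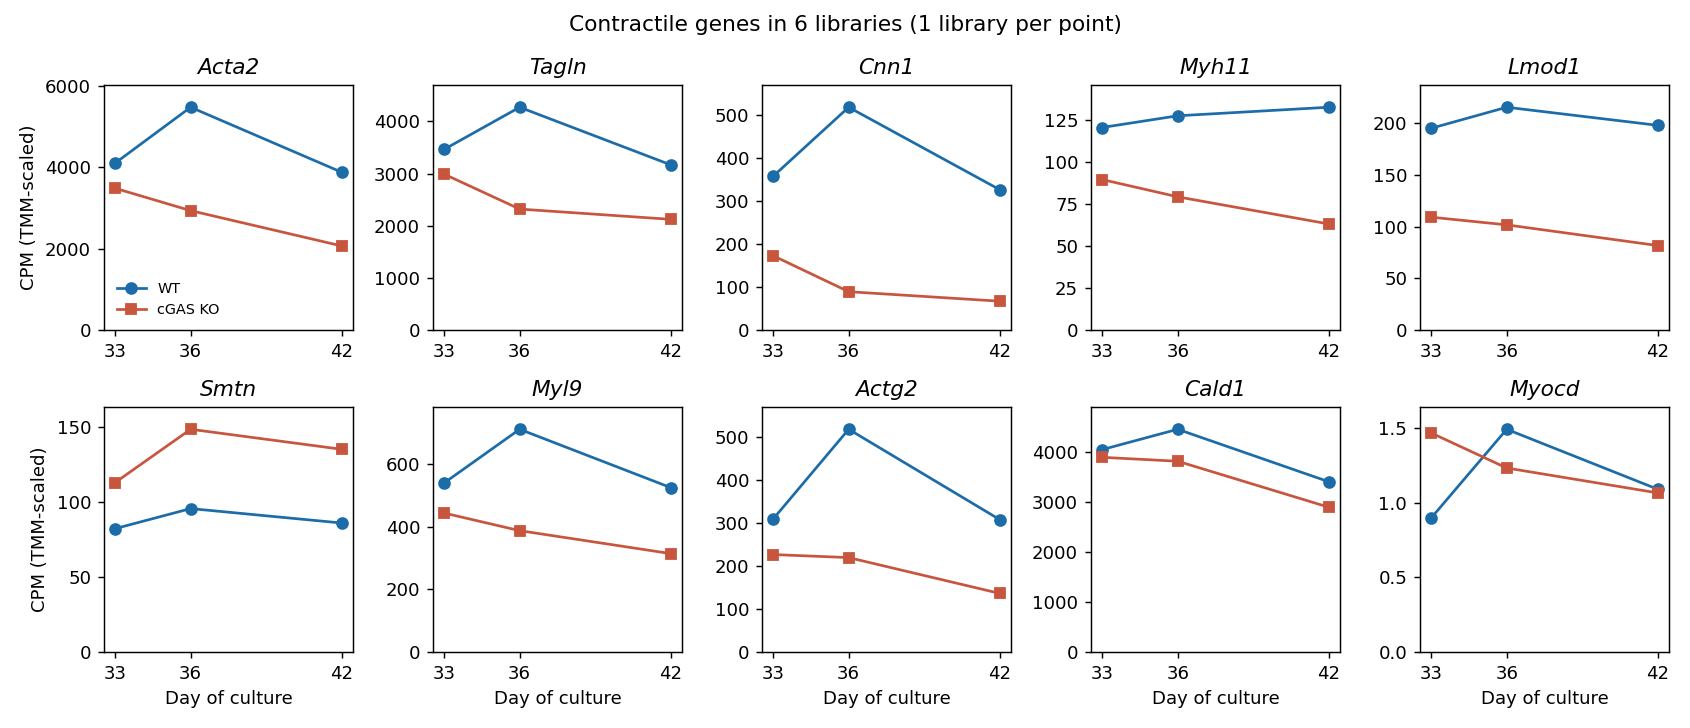
CPM of each contractile gene (vertical axis, linear, starting at 0) against day of culture for WT (circles) and cGAS KO (squares), 1 library per point. For 7 genes each KO point lies below each WT point, for Smtn each KO point lies above, and for Cald1 and Myocd the genotypes overlap.

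Acta2, smooth muscle alpha-actin and the usual marker of the myofibroblast, lies at chr19:34241090-34255590 on the minus strand (GRCm38). It was at 4102, 5476 and 3878 CPM in WT on days 33, 36 and 42, and at 3486, 2937 and 2068 CPM in KO. The highest KO library lay below the lowest WT library, and WT peaked on day 36 while KO was lowest on day 42. The fold change was -0.66 ± 0.24, which was not called (edgeR's quasi-likelihood test, adjusted p = 0.135). Actg2, the enteric gamma-actin, lies at chr6:83512905-83536265 on the minus strand. It was at 310, 519 and 309 CPM in the WT libraries, against 227, 220 and 137 CPM in KO, again with no overlap. Its fold change was -0.96 ± 0.28 (edgeR's quasi-likelihood test, adjusted p = 0.0874). The coding sequences of the 2 actins were 84.2% identical and shared no run of 50 bases.

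Myh11, the smooth muscle myosin heavy chain and a marker of differentiated smooth muscle, lies at chr16:14194535-14291372 on the minus strand. It was at 121, 128 and 133 CPM in the WT libraries, against 89.6, 79.3 and 63.2 CPM in KO. The WT libraries were close together and the KO libraries all below them. Myh11 fell by 0.71 ± 0.14 on the log2 scale (edgeR's quasi-likelihood test, adjusted p = 0.0299). Myl9, the regulatory light chain whose phosphorylation starts contraction, lies at chr2:156775420-156781658 on the plus strand. Its levels were 539, 710 and 524 CPM in WT and 443, 387 and 314 CPM in KO, without overlap. The fold change of Myl9 was -0.63 ± 0.18, which missed the threshold (edgeR's quasi-likelihood test, adjusted p = 0.0792).

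Cnn1, the smooth muscle calponin that binds actin and slows the myosin motor, showed the largest fold change of the 10. It lies at chr9:22099216-22109630 on the plus strand and was at 358, 519 and 327 CPM in the WT libraries, against 173, 89.6 and 67.4 CPM in KO. The KO libraries all lay below the WT ones, and the gap was widest on day 36. Cnn1 fell by 1.87 ± 0.38 (edgeR's quasi-likelihood test, adjusted p = 0.0362). Tagln (SM22), at chr9:45929619-45936058 on the minus strand, is an early marker of the smooth muscle lineage. It was at 3464, 4272 and 3167 CPM in the WT libraries, against 2991, 2321 and 2124 CPM in KO. These groups did not overlap, although KO on day 33 came close to WT on day 42. Its fold change of -0.55 ± 0.19 was not called (edgeR's quasi-likelihood test, adjusted p = 0.123). Tagln shares 108 bases with Pcsk7 on the other strand, which had 1065 to 1710 counts per library, far fewer than the 62222 to 186417 of Tagln.

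Lmod1, a leiomodin that nucleates actin filaments in smooth muscle, had the smallest adjusted p. It lies at chr1:135324807-135368065 on the plus strand and was at 195, 215 and 198 CPM in the WT libraries, against 109, 102 and 81.8 CPM in KO. The genotypes were far apart relative to the spread between days. Lmod1 fell by 1.06 ± 0.12 (edgeR's quasi-likelihood test, adjusted p = 0.00987). Smtn, smoothelin, a protein of contractile smooth muscle that also has forms in other cells, moved the other way. It lies at chr11:3517523-3540612 on the minus strand and was at 82.5, 95.9 and 86.2 CPM in the WT libraries, against 113, 149 and 135 CPM in KO. Each KO library was above each WT library. Smtn rose by 0.59 ± 0.12 (edgeR's quasi-likelihood test, adjusted p = 0.0374).

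Cald1, caldesmon, lies at chr6:34598500-34775473 on the plus strand. Its levels were 4043, 4449 and 3402 CPM in WT and 3890, 3812 and 2893 CPM in KO, and the genotypes overlapped. The fold change was -0.17 ± 0.18 (edgeR's quasi-likelihood test, adjusted p = 0.599). Myocd, the coactivator that drives the smooth muscle program, lies at chr11:65176561-65269989 on the minus strand and was barely present. It had 33 to 65 counts per library, or 0.896, 1.49 and 1.09 CPM in WT and 1.47, 1.23 and 1.06 CPM in KO. The exact 95% Poisson intervals, which cover counting error only, ran from 0.650 to 1.22 CPM in WT on day 33 and from 1.08 to 1.93 CPM in KO on day 33. These 2 intervals overlapped. The fold change of Myocd was 0.11 ± 0.26 (edgeR's quasi-likelihood test, adjusted p = 0.825).

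The 4 calls depended on the libraries and, for Cnn1, on the filter. With no filter on low counts Cnn1 was no longer called (edgeR's quasi-likelihood test, adjusted p = 0.0576), which left 3 members and 1266 of all genes. Leaving out the KO library of day 36, or both libraries of day 36, left 0 members called by edgeR's quasi-likelihood test. Of all genes, 24 and 3 were then called, against 1503 in the main fit. The member count was 1 without the WT library of day 33 or 36, the KO library of day 42 or both libraries of day 42. Of all genes, 254, 738, 68 and 539 were then called. The member count was 2 without the WT library of day 42 or both libraries of day 33, with 1703 and 429 of all genes. Without the KO library of day 33 it stayed at 4, with 1811 of all genes. The fold changes of all members but Myocd kept their sign whichever library or day was left out. Lmod1 was still called in 7 of 9 such fits, Cnn1 in 3, and Myh11 and Smtn in 1 each. DESeq2's Wald test called 8 members, adding Acta2, Tagln, Myl9 and Actg2, and 2817 of all genes, against 1503 in edgeR's test.

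**Figure D2:**
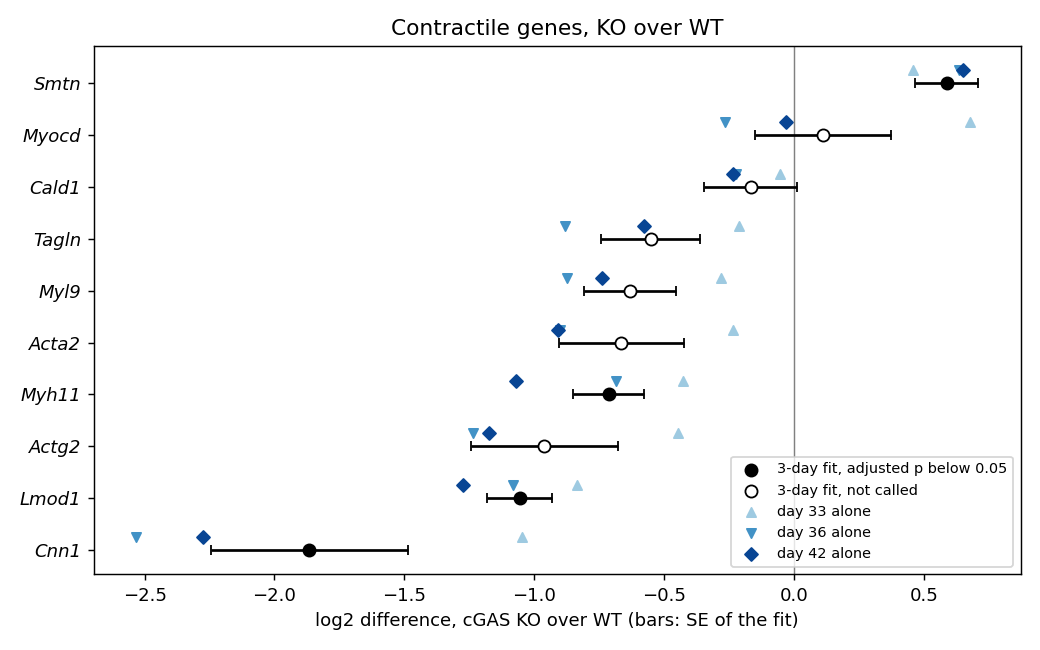
Log2 fold change, cGAS KO over WT, for each contractile gene: large circles with bars give the 3-day fit and its SE (filled where the adjusted p was below 0.05), and small symbols the difference on each single day. Cnn1 is farthest to the left at -1.87, Smtn is the filled circle to the right at 0.59, and for 9 genes the day 33 symbol is the one nearest to 0.

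The difference between genotypes was smaller on day 33 than later for most members. With 1 library per genotype and day these are differences between 2 libraries and carry no test. A gene was counted when it differed at least 2-fold and had at least 5 CPM in the higher library, which 9 members had. Shares of genes on single days are of the genes that met this level in the same pair of libraries (11855 on day 33, 11810 on day 36 and 12023 on day 42). On day 33 only Cnn1 of these 9 was 2-fold lower in KO, at 2.07-fold, against 4.1% of these genes. On day 36 Cnn1 (5.79-fold), Actg2 (2.36-fold) and Lmod1 (2.12-fold) were 2-fold lower, against 4.67% of these genes. On day 42 these were Cnn1 (4.84-fold), Lmod1 (2.42-fold), Actg2 (2.25-fold) and Myh11 (2.10-fold), against 6.5% of these genes. No member was 2-fold higher on any day, where the share of these genes was 2.48%, 2.96% and 3.03%. The median difference of the 9 members was -0.28 on day 33, -0.88 on day 36 and -0.91 on day 42, with these genes at 0.00, 0.00 and 0.02. Acta2 differed by 1.18-fold, 1.86-fold and 1.87-fold on the 3 days, and Tagln by 1.16-fold, 1.84-fold and 1.49-fold. Scaled by library totals alone, Cnn1 missed 2-fold on day 33, which left 0 members.

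The order of the 3 days differed between the genotypes, a difference that was not tested. In KO, 9 of the 10 were highest on day 33 and lowest on day 42, Smtn being the exception. In WT, 9 of the 10 were highest on day 36, Myh11 being the exception. The summed level of the 10 genes was 13215, 16385 and 12024 CPM in WT and 11524, 10097 and 7885 CPM in KO. The sum therefore peaked on day 36 in WT and was lower at each later day in KO. Within a genotype few differences reached 2-fold: in KO from day 33 to day 42 Cnn1 alone was 2-fold lower, with a difference of -1.36, against 2.62% lower and 1.45% higher among genes of at least 5 CPM in the higher library (11601 to 11954 per pair of days). No member differed 2-fold in KO on day 36 against 33 (2.34% of such genes lower, 1.08% higher) or on day 42 against 36 (0.483% lower, 0.414% higher). In WT no member differed 2-fold on day 36 against 33 (0.995% of such genes lower, 0.326% higher), on day 42 against 36 (2.48% lower, 4.37% higher) or on day 42 against 33 (2.07% lower, 3% higher). A quasi-likelihood F test of day in edgeR, with genotype as a term, called 0% of all genes and 0 members, with adjusted p-values of 0.533 to 0.856 for the members. That test had 2 residual degrees of freedom. At an unadjusted p under 0.05 it counted 1653 genes (9.59%) and no member, and DESeq2's likelihood ratio test called 359 genes.

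Most members varied together over the 6 libraries. Pearson's r of log2 CPM with Acta2 was 0.99 for Myl9, 0.98 for Actg2, 0.97 for Tagln and 0.95 for Cnn1. Smtn had negative values with the others apart from Myocd, down to -0.90 with Cnn1, Myh11 and Lmod1. Myocd had values from -0.07 with Lmod1 to 0.42 with Cald1. These are descriptions over 6 libraries that share the 2 genotypes and 3 days. Among 10276 genes averaging 5 CPM or more, those most like Acta2 by this measure were Riok3 (0.998), Myl12b (0.996), Ptger1 (0.996), Rnf41 (0.994) and B2m (0.993). Those most like Cnn1 were Trappc6b (0.998), Rps6kc1 (0.995), Fhod1 (0.994), Dgkh (0.994) and Tgoln1 (0.991).

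Transcript counts, as estimated by the authors' counting, allowed the forms of a gene to be compared. Of 21 transcripts of members with several forms, the share of 1 (Cald1-201) lay lower in KO without overlap, 2 (Cald1-203 and Cald1-214) lay higher and 18 overlapped. Among all 21732 transcripts compared 5.37% lay lower and 5.04% higher, so the count of lower forms among the members was near the background, and Cald1-201 is given as a description. Cald1-201 starts inside the gene at position 34709634 of chromosome 6, encodes 554 codons and has an annotated last exon of 472 bases, against 2232 bases in the main form Cald1-202. Its share of Cald1 counts was 10.7%, 4.34% and 11.3% in WT and 0.875%, 1.59% and 2.15% in KO. The WT shares were all above the KO shares, and day 36 was the lowest WT value. The means were 8.79% ± 3.86 and 1.54% ± 0.641 (SD, n = 3 each), and the level of the form, scaled for depth, was 345 ± 130 CPM in WT against 53.7 ± 16.3 CPM in KO, or 6.41-fold higher in WT. Of all transcripts compared, 2.03% lay lower in KO without overlap and with means at least 5 points apart. Cald1-205, longer like the smooth muscle form of caldesmon, encodes 768 codons, against 534 in Cald1-202. Cald1-205 holds an exon of 1021 bases, and Cald1-202 has no exon with the same bounds. Its shares were 18.4%, 23.8% and 11.8% in WT and 18.2%, 21.3% and 16.4% in KO, and these overlapped. Smtn-203, the main form of Smtn, took 68.9%, 67.3% and 37.2% in WT and 47.9%, 49.5% and 38.9% in KO. The transcript counts of Smtn summed to 1.25 to 1.29 times its gene count, so shares within Smtn are uncertain. Acta2, Tagln, Cnn1, Myh11 and Lmod1 had 1 transcript each.

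**Figure D3:**
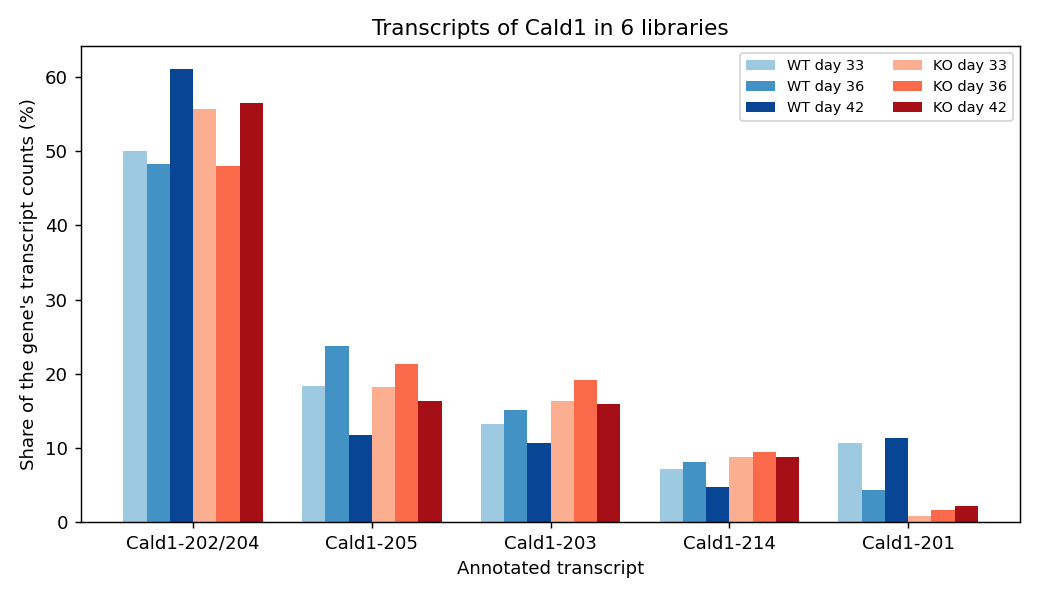
Share of Cald1 transcript counts in percent (vertical axis from 0) for the annotated transcripts with at least 5% in any library, 1 bar per library, blue for WT and red for cGAS KO. Cald1-201, at the right, is at 4.34% to 11.3% in WT and at most 2.15% in KO, while Cald1-203 and Cald1-214 are higher in KO and the other forms overlap.

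Of 24 other genes of the contractile apparatus tested, 1 was called lower and none higher, a share no larger than among all genes tested (4.65% lower, 4.07% higher). At an unadjusted p under 0.05, edgeR's test counted 10 of the 24, against 27.3% of all genes. The 3 KO values of 10 lay below all 3 WT values, against 17.1% of all genes, and those of none lay above, against 17.3%. The median fold change of the 24 was -0.38, against -0.01 for all genes, and 21 were negative. The called gene was Kcnmb1, the beta subunit of the calcium-activated potassium channel of smooth muscle. It was at 10.3, 17.9 and 8.39 CPM in the WT libraries, against 1.38, 2.83 and 2.33 CPM in KO, and fell by 2.49 ± 0.38 (edgeR's quasi-likelihood test, adjusted p = 0.0176). Mylk, the kinase that phosphorylates Myl9, was at 22.6, 38.9 and 47.6 CPM in the WT libraries, against 20.7, 6.90 and 5.73 CPM in KO. The groups did not overlap and the gap was small on day 33, and the fold change of -1.71 ± 0.54 was not called (edgeR's quasi-likelihood test, adjusted p = 0.106). The tropomyosins Tpm1 (-0.65 ± 0.21) and Tpm2 (-0.77 ± 0.21) were not called either, and desmin (Des), the intermediate filament of muscle, was at 0.633 to 7.15 CPM in all libraries. Counterparts of the members that most cells use had a median of -0.17 over 20 tested, of which 19 were negative. Of these 20, 1 was called lower, again near the share among all genes. That gene, Lmod2, was named after its values were seen because it was the only call, and it was below 1 CPM in every library. Actb was at -0.16 ± 0.21 and Actg1 at -0.26 ± 0.20, and the striated muscle actins Acta1 (-0.82 ± 0.28) and Actc1 (-0.88 ± 0.24) were not called. Actin genes have near-identical copies in the genome, and how the counting split such reads is not given in the sources used here.

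Of 22 regulators around SRF, the myocardin-related factors and the Hippo pathway, 1 was called lower and none higher. The shares among all genes tested were 4.65% lower and 4.07% higher. At an unadjusted p under 0.05, edgeR's test counted 10 of the 22, against 27.3% of all genes. The median of the list was -0.18. The called gene was Wwtr1 (TAZ), a Hippo-controlled coactivator, at 264, 289 and 248 CPM in WT and 174, 205 and 200.5 CPM in KO. It fell by 0.47 ± 0.11 (edgeR's quasi-likelihood test, adjusted p = 0.0457). Srf was at -0.20 ± 0.21, Mkl1 at -0.38 ± 0.13 and Mkl2 at 0.00 ± 0.10, none of them called. TGF-beta is the main inducer of myofibroblasts: of 19 ligands, receptors and Smads 0 were called by edgeR. An unadjusted p under 0.05 was found for 7, against 27.3% of all genes. Of the ligands, Tgfb1 was at 0.05 ± 0.17, Tgfb2 at -1.13 ± 0.40 and Tgfb3 at 0.56 ± 0.23. Of 9 YAP targets 0 were called, and 1 had an unadjusted p under 0.05. Of 19 matrix and surface genes of myofibroblasts, edgeR's test counted 9 at an unadjusted p under 0.05, against 27.3% of all genes. The median of these 19 was -0.30. After adjustment 1 was called lower and none higher, against 4.65% and 4.07% of all genes tested. That gene was S100a4, a calcium-binding protein of fibroblasts, which was at 379, 377 and 373 CPM in the WT libraries, against 192, 234 and 171 CPM in KO and fell by 0.92 ± 0.13 (edgeR's quasi-likelihood test, adjusted p = 0.0133).

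**Figure D4:**
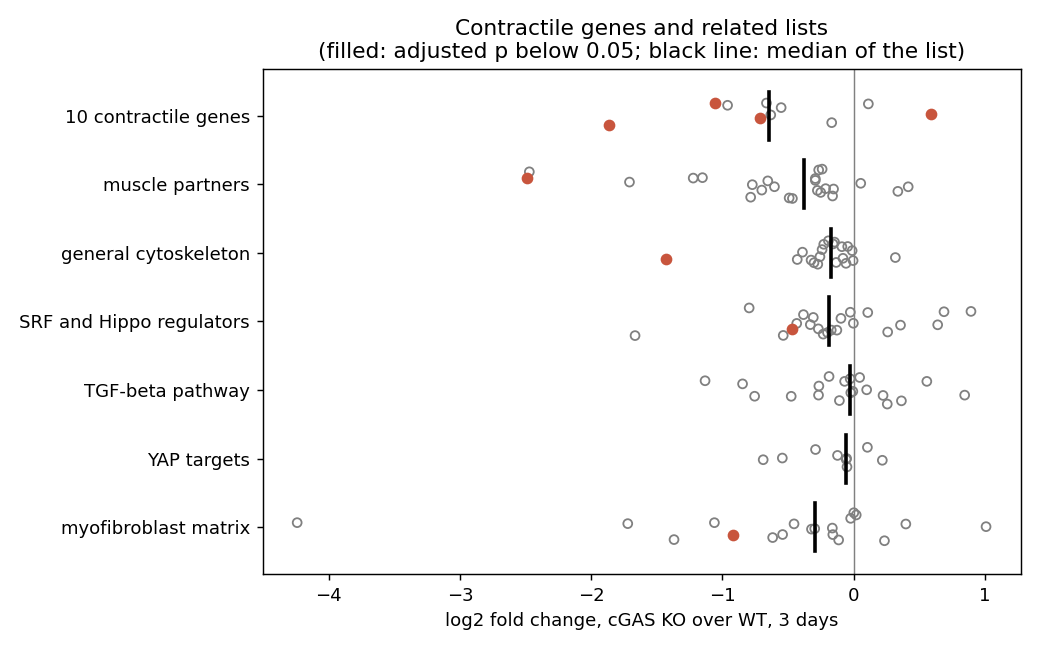
Log2 fold change, cGAS KO over WT, of every tested gene in the contractile list and 6 related lists (1 circle per gene, filled where the adjusted p was below 0.05, vertical black line at the median of the list). The median of the contractile genes is at -0.65, and the medians of the 6 related lists lie between -0.38 and -0.03. Lists of cell type markers are not shown. Their medians ran from -0.97 for macrophage markers to 0.52 for endothelial markers, with fibroblast markers at -0.89.

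Markers of other cell types were compared beside these results, and their part in them was not tested. Fibroblast markers differed widely in level, with Vim at 4173 to 5301 CPM, Thy1 at 432 to 1467 CPM and Pdgfra at 14.6 to 102 CPM. Dcn was at 23.7 to 170 CPM in WT and 7.59 to 18.3 CPM in KO. Lum was at 0.985 to 21.3 CPM in WT and 0.224 to 2.48 CPM in KO. Of the 10 markers, 9 had a negative fold change, Fbln1 being the exception. The summed level of the list was 9518 to 10920 CPM in WT and 7848 to 8083 CPM in KO. Of 10 such markers 1 was called lower and none higher, against 4.65% and 4.07% of all genes tested. At an unadjusted p under 0.05, edgeR's test counted 6 of the 10, against 27.3% of all genes. The median of the list was -0.89. The called marker was Prrx1, at 578, 426 and 562 CPM in WT and 322, 221 and 243 CPM in KO (-0.995 ± 0.188, edgeR's quasi-likelihood test, adjusted p = 0.0292). Of 8 pericyte and mural markers 0 were called by edgeR and 1 had an unadjusted p under 0.05. Their summed level, 455 to 729 CPM in WT and 494 to 701 CPM in KO, overlapped, and the median fold change of the list was -0.59, with 6 of the 8 below 0. The skeletal muscle regulator Myod1 was at 0 in all libraries, and the summed level of its list, made up mostly of Acta1 and Actn2, was 464 to 797 CPM in WT and 292 to 461 CPM in KO. Cardiac markers summed to 102 to 165 CPM in WT and 62.1 to 85.6 CPM in KO, mostly from Actc1. Of 6 tested, 1, Gata4, was called lower and none higher, against 4.65% and 4.07% of all genes tested. Gata4 had at most 4.45 CPM and was named after its values were seen. Endothelial markers summed to 14.6 to 16.0 CPM in WT and 8.72 to 16.3 CPM in KO, epithelial markers to 19.6 to 39.8 CPM and 19.9 to 24.2 CPM, and macrophage markers to 6.85 to 46.2 CPM and 4.81 to 23.1 CPM. None of these 3 lists held a call by edgeR, with 1, 1 and 0 genes at an unadjusted p under 0.05. Cell division genes went the other way from the contractile genes: 9 of 10 were called higher and none lower in KO. Among all genes tested, 4.07% were called higher and 4.65% lower. The cell division genes had a median of 0.83. Their summed level was 635 to 644 CPM in WT and 991 to 1168 CPM in KO.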

How the data were processed

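RNA from bulk MEF populations was extracted with an RNeasy kit and made into stranded TruSeq mRNA libraries, per the labels' protocols. Deposited by the authors were estimated counts of genes and of transcripts, and gene RPKM. The submitters' processing notes name Bowtie2 2.2.1, limma 3.18.13 and the build mm10; no source used here gives the counter, its use of strand or the annotation release. The deposited tables hold 24 further columns of per-sample values that match no sample here and were not used.

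Summed estimated counts were rounded and tested with edgeR 4.0.16 (R 4.3.3) by robust quasi-likelihood, with TMM scaling (factors 0.927 to 1.083), filterByExpr and genotype as the only term. DESeq2 1.42.0 and limma 3.58.1 (voom) were alternatives. Of 45706 genes, 28938 had a count and 17233 were tested. In simulated data with 200 of 17233 genes changed, the genotype test recovered 66% of 2-fold and 96% of 4-fold changes, with 17 false calls. The changed genes averaged at least 5 CPM, so these rates do not cover genes as low as Myocd. The scatter fitted to the data was taken as the true one. Log2 CPM used a prior count of 2. RPKM is the mean of the 4 columns. Transcripts with identical values were counted once. Gene coordinates were taken by Ensembl ID from GENCODE M21 (GRCm38), and the deposited starts and ends differ from them by up to 10 bases, apart from the Acta2 end (254), the Cnn1 start (63) and the Myh11 end (36). The members and lists were chosen with earlier results of these data known. Named were all 10 members, genes of the lists with the smallest adjusted p and at least 5 CPM, a set of actins, tropomyosins and regulators, Mb21d1, and the 5 genes most correlated with Acta2 and with Cnn1 (no predicted names).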

Additional observations from a re-analysis of the deposited data

Results flagged for a closer look

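Cnn1 took opposite courses from day 33 to day 36 in the 2 genotypes. Its log2 CPM was higher on day 36 by 0.53 in WT and lower by 0.95 in KO (a difference of -0.95), so the change in KO minus that in WT was -1.49. Each value rests on 1 library per genotype and day, and the difference was not tested.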

How the results depend on the processing

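Of 220 comparisons of a member's fold change with an alternative (22 for each of 10 members), 179 kept the direction and the side of the threshold, 12 gained a call and 25 lost one. The other 4 were changes of sign, all of Myocd: -0.05 without WT day 33, -0.02 without KO day 33, -0.18 without day 33 and -0.06 without replicate 4 (range over all samples left out, -0.18 to 0.35). Lmod1 was called in 20 of its 22 alternatives, Cnn1 in 15, Myh11 and Smtn in 14 each, Acta2, Tagln, Myl9 and Actg2 in 3 each, and Cald1 and Myocd in 0. These 22 are not independent: they include fits of the 24 columns as separate samples and fits without a numbered column. For Acta2, Tagln, Myl9 and Actg2 the 3 calls came from DESeq2's Wald test and the fits of 24 columns. Over the 9 fits without a library or day, Lmod1 was called in 7 and Cnn1 in 3. Myh11 and Smtn were called in 1 each and the other members in 0. With no filter Cnn1 had an adjusted p of 0.0576 (edgeR).

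DESeq2's Wald test called 2817 genes and 8 members, against 1503 and 4. Leaving out libraries, days or numbered columns gave 3 to 1811 genes and 0 to 4 members: dropping the WT library of day 33 gave 254 and 1, of day 36 738 and 1, and of day 42 1703 and 2. Dropping the KO library of day 36 gave 24 and 0, and of day 42 68 and 1. Dropping both libraries of day 33 gave 429 and 2, of day 36 3 and 0, and of day 42 539 and 1. The day test called 0 genes, 0 to 3 when a library was left out (3 without WT day 33, 1 without KO day 33), and 359 by DESeq2's likelihood ratio test. Library totals in place of TMM moved the median of all genes by 0.11, gave 1022 higher and 635 lower calls (61.7% higher, against 46.6%), and left 0 members 2-fold apart on day 33. The cause of these differences was not tested, and the fits with a library or day left out also had fewer libraries.

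Taken as 24 separate samples, the columns gave 8657 genes and 8 members, and with the replicate number as a block 8332 genes and 8 members. Same-numbered columns had correlations of deviations of -0.0258 to 0.0399, and 9 of 24 columns were closest to their own number, so the numbers pair nothing. Myocd rests on 33 to 65 counts per library.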
